A study of Mus musculus with 20 samples.

Results

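Foxk2 overexpression was compared with its own empty vector control in 3T3-L1 adipocytes, a mouse preadipocyte line of Swiss origin that is turned into fat cells in culture. The comparison rests on 4 of the 20 RNA-sequencing libraries of the series, chosen by their labels: 2 from cells that carry a construct for constituent overexpression of FOXK2, as the labels put it, and 2 from cells with an empty vector. Both groups had the same culture history. The cells were differentiated with a mixture of insulin (5 µg/ml), troglitazone (10 µM), dexamethasone (1 µM) and isobutyl methylxanthine (0.5 mM), were held in insulin alone from day 4, and stayed in growth medium from day 6. All 4 libraries thus come from cells exposed to a glucocorticoid, a phosphodiesterase inhibitor and a thiazolidinedione that activates Pparg. The other groups set beside them were Foxk2 knockdown by shRNA with a scrambled shRNA control (2 libraries each) and the overexpression labelled Foxk1 with its own empty vector control (3 libraries each). The species and vector backbone of the construct, the number of clones or pools and the day of harvest are not given in the sources used here. Replicates are not said to be separate cultures, and the p-values therefore reflect only how far these libraries differ, which may be technical.

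Foxk2 and its paralogue Foxk1 are forkhead transcription factors that also carry a forkhead-associated domain, which binds phosphorylated proteins. They bind forkhead sites in DNA, recruit the Sin3A corepressor with its histone deacetylases and the Bap1 deubiquitinase, and move between cytoplasm and nucleus in response to insulin and mTOR signalling. In muscle and fat cells they are known for holding down autophagy genes and for a role in aerobic glycolysis, the conversion of glucose to lactate in the presence of oxygen. Glucose use is the subject of the published study, so the counts of glycolysis genes given here are not independent evidence of their direction.

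Foxk2 itself (ENSMUSG00000039275.9, chromosome 11, 121259990 to 121309896, plus strand in mm10) was at 13.4 and 13.3 RPKM in the controls and 19.9 and 19.98 RPKM with overexpression. Both overexpression libraries lay above both controls, and the log2 fold change was 0.56 ± 0.05 (SE; limma adjusted p = 1.37e-07). A log2 fold change of 1 is a doubling, and all fold changes are on the log2(RPKM + 0.5) scale, where RPKM is reads per kilobase of gene length, scaled to the assigned reads of each library. The scale understates changes of genes near the pseudocount of 0.5. Which part of the construct's own message was counted at this gene was not tested, and protein was not measured here. In Foxk2 knockdown the same gene had a log2 fold change of -1.83 ± 0.05. The paralogue Foxk1 (ENSMUSG00000056493.9, chromosome 5, 142401497 to 142462011, plus strand) was at 11.6 and 11.6 RPKM in the controls and 6.98 and 7.30 RPKM with overexpression. Its groups did not overlap either, and it fell by 0.66 on the log2 scale (SE 0.068, adjusted p = 6e-07).

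Of 12870 genes with 0.5 RPKM or more in at least 2 of the 4 libraries, 3683 (28.6%) were higher and 3428 (26.6%) lower with Foxk2 overexpression at an adjusted p under 0.05 in limma, so 55.3% passed in either direction. Most of these changes were small. The median absolute log2 fold change of the genes that passed was 0.40, and 22.3% of them had one under 0.25. A change of 2-fold or more was seen in 242 rises (1.88% of genes tested) and 379 falls (2.94%). These counts depend on the pseudocount and model: they were 365 and 585 with a pseudocount of 0.1, 175 and 268 with one of 1, and 416 and 654 with voom on the recovered reads. The values of the groups lay apart for 78.2% of genes, 41.0% in the upward and 37.2% in the downward direction. Genes named below because they passed, or for their small p, were likely to lie apart through that choice. With 2 libraries against 2, an exact permutation test of a single gene cannot give a two-sided p below 0.333, so the calls rest on the spread that limma shares across genes and libraries. The filter could be passed through one group alone, and a gene that did so had to differ: 231 genes passed through the overexpression libraries only and 303 through the controls only. Through the controls alone came 1 member each of the matrix, Wnt, amino acid response and immediate early lists described below. So did 2 differentiation regulators and 3 interferon response genes. Through the overexpression libraries alone came 1 member each of the fatty acid oxidation, secreted factor, amino acid response and antioxidant lists. The muscle and bone lists also had 1 each, and the cell cycle list had 9.

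Assigned reads came to 36157008 and 32100965 in the controls and to 33022759 and 31388128 in the overexpression libraries. Replicates of a group correlated more closely (Pearson r over log2 values of all genes tested 0.995 in the controls and 0.994 with overexpression) than libraries of different groups (0.965 to 0.969). Mitochondrial genes held 7.09% and 6.42% of control reads and 7.80% and 5.14% of overexpression reads. Overexpression replicate 2 stood apart from the other libraries in several mitochondrially encoded messages, which are described with the respiratory genes. The adipocyte markers Adipoq, Fabp4, Cidec and Cfd were high in all 4 libraries, from 647 RPKM for Adipoq in overexpression replicate 2 to 3417 RPKM for Cfd in control replicate 2. Leptin was under 0.5 RPKM in all 4. Most markers of macrophages, endothelium, epithelium and skeletal muscle were under 0.5 RPKM in all 4, with the exceptions given with the marker lists. Exons of Bscl2, C1s1, Ccna2, Bhlhe41, Cebpb, Cryab, Dvl2, Gpd1, Gpi1, Hexa, Hmgcs1, Lef1, Lipe, Ndufb9, Pdha1, Pfkm, Pkm, Rpe and Txnip, and of the genes for which a share is printed, overlap other annotated genes by more than 10% of their bases, and with library strand not given in the sources used here their levels are uncertain.

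The largest rises included Cyp2b10, Cidea, Acaa1b and Apoc1. A gene was named among the 12 largest rises or 12 largest falls only if its groups lay apart. That separation was thus set by the choice, and it held for 78.2% of all genes tested. Cyp2b10, a cytochrome P450 that oxidises drugs and steroids and is a textbook target of the receptor CAR in liver (ENSMUSG00000030483.14, chromosome 7, 25897620 to 25926624, plus strand), was at 1.91 and 2.08 RPKM in the controls and 49.5 and 58.7 RPKM with overexpression. Both overexpression values were far above both controls (log2 fold change 4.45 ± 0.093 SE, adjusted p = 6.23e-14). Cidea, a lipid droplet protein abundant in brown fat, was at 1.54 and 0.937 RPKM in the controls and 31.3 and 37.5 RPKM with overexpression. Here too the groups lay apart (log2 fold change 4.34 ± 0.14 SE, adjusted p = 2.05e-12). Acaa1b, a peroxisomal thiolase of fatty acid breakdown, was at 2.42 and 2.46 RPKM in the controls and 31.2 and 31.8 RPKM with overexpression. It rose by 3.44 ± 0.12 (SE), with 11.4% of its exon bases shared with Dlec1.

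Aspg, which encodes an asparaginase, went from 1.36 and 1.21 to 14.5 and 15.7 RPKM (log2 fold change 3.13 ± 0.11 SE). Gfra1, a co-receptor for the growth factor GDNF, went from 0.763 and 0.700 to 9.61 and 10.5 RPKM (3.10 ± 0.098). Hgd, an enzyme of tyrosine breakdown, moved from 1.13 and 0.929 to 11.7 and 12.4 RPKM (3.04 ± 0.13). Their groups did not overlap, which the choice of genes required. Apoc1, an apolipoprotein of triglyceride-rich particles and HDL, was the most abundant of the 12 genes with the largest rises, at 77.0 and 67.8 RPKM in the controls and 484 and 491 RPKM with overexpression (log2 fold change 2.75 ± 0.063 SE). The haem-binding plasma protein gene Hpx rose by 2.43, the hemimethylated DNA reader Uhrf1 by 2.30, the muscle-type cytochrome oxidase subunit Cox7a1 by 2.30 and Fibin by 2.29 on the log2 scale. Synm, an intermediate filament gene, was at 2.89 and 2.66 RPKM in the controls and 14.7 and 15.4 RPKM with overexpression. It rose by 2.25, while its log2 fold change was 0.042 in Foxk2 knockdown and 0.079 in the overexpression labelled Foxk1.

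The largest falls included Ccdc80, Car3, Cyp2e1 and Clec3b. Ccdc80, a secreted protein that binds matrix (ENSMUSG00000022665.14, chromosome 16, 45093402 to 45128077, plus strand), was at 589 and 575 RPKM in the controls and 57.8 and 57.4 RPKM with overexpression. Both overexpression libraries were far below both controls, and it dropped by 3.33 on the log2 scale (SE 0.08, adjusted p = 1.6e-13). Car3, the carbonic anhydrase of fat and slow muscle (ENSMUSG00000027559.5, chromosome 3, 14863512 to 14872523, plus strand), was at 6.97 and 6.23 RPKM in the controls and 0.391 and 0.278 RPKM with overexpression. Both overexpression libraries were below 0.5 RPKM, so it passed the filter through the controls alone, and the log2 fold change was -3.09 ± 0.12 (SE). Cyp2e1, which oxidises ethanol and small organic compounds, went from 34.3 and 31.3 to 4.28 and 4.34 RPKM (-2.79 ± 0.18), opposite in direction to Cyp2b10.

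Clec3b, which encodes tetranectin, a plasminogen-binding protein, went from 19.5 and 21.2 to 2.42 and 2.96 RPKM (log2 fold change -2.71 ± 0.084 SE). Thbd, the thrombin receptor thrombomodulin, went from 30.3 and 28.4 to 4.76 and 4.28 RPKM (-2.57 ± 0.091). Thbs1, the matricellular protein thrombospondin 1, moved from 62.5 and 63.7 to 11.1 and 10.4 RPKM (-2.50 ± 0.095). No overexpression library reached a control library for any of them, which the choice of genes required. The secreted ribonuclease genes Ang5 (-2.51), Ang4 (-2.46) and Ear2 (-2.33) fell as well, as did the collagen-binding proteoglycan Lum (-2.47), the chemokine Ccl6 (-2.29) and the prostaglandin D synthase Ptgds (-2.15). Ang4, Ang5 and Ear2 belong to families of similar genes, which the authors' counting could split, so their separate levels are uncertain.

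**Figure D1:**
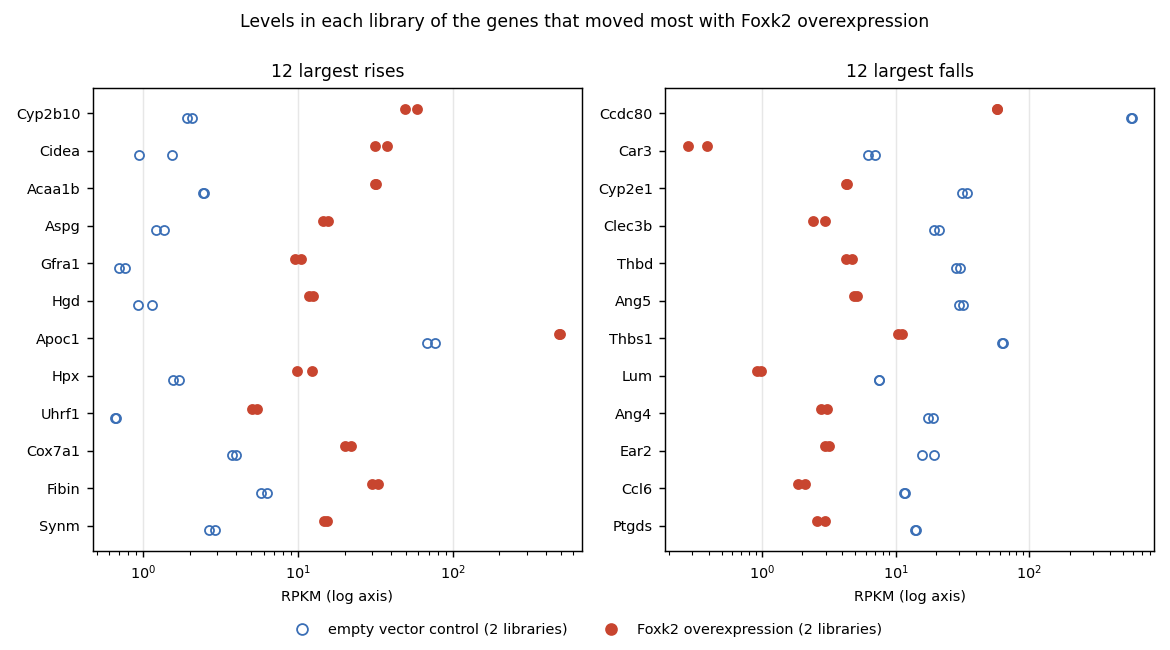
RPKM on a log axis of the 12 genes with the largest rises (left) and falls (right), open circles for the 2 empty vector control libraries and filled circles for the 2 Foxk2 overexpression libraries. The choice of genes required the groups to lie apart. Log2 fold changes run from Cyp2b10 (4.45) to Synm (2.25) and from Ccdc80 (-3.33) to Ptgds (-2.15).

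Glycolysis enzymes were higher along most of the pathway, with isoforms of 1 step moving in opposite directions for hexokinase and enolase. Of 19 glycolysis enzymes, 17 passed the filter and 14 rose, 2 fell and 1 was not called, and the median was 0.90, beside 28.6% higher, 26.6% lower and a median of 0.025 over all genes tested. The summed level of the glycolysis enzymes was 1478 and 1627 RPKM in the controls and 2820.0 and 3191 RPKM with overexpression. The values over all genes tested apply beside every list that follows as well. Hk2, the insulin-regulated hexokinase that traps glucose as its phosphate, was at 51.6 and 52.5 RPKM in the controls and 122 and 127 RPKM with overexpression (log2 fold change 1.25 ± 0.065 SE, adjusted p = 3.69e-10). Hk1, the housekeeping hexokinase, was at 5.27 and 5.39 RPKM in the controls and 3.08 and 3.04 RPKM with overexpression and fell by 0.71 on the log2 scale. The overexpression values of Hk2 were both above the controls and those of Hk1 both below.

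At the committed step, the phosphofructokinases Pfkp (1.02 ± 0.07 SE), Pfkl (0.77 ± 0.098) and Pfkm (0.45 ± 0.043) rose together, and Gpi1, which precedes them, rose by 0.47 ± 0.073. Aldoa, the aldolase of muscle and most tissues, was at 439 and 477 RPKM in the controls and 922 and 985 RPKM with overexpression and rose by 1.06 ± 0.075. Tpi1, which interconverts the products of aldolase, rose by 1.004 ± 0.076. Of the enolases, Eno1 rose by 1.06 ± 0.065 whereas the muscle isoform Eno3, at 10.6 and 10.1 RPKM in the controls and 5.66 and 5.81 RPKM with overexpression, fell by 0.80. Pkm, the last step to pyruvate, was at 290.4 and 324 RPKM in the controls and 469 and 586 RPKM with overexpression (log2 fold change 0.77 ± 0.14). Ldha and Ldhb, the subunits of lactate dehydrogenase, rose by 1.21 ± 0.099 and 0.89 ± 0.068. The muscle phosphoglycerate mutase Pgam2 had a log2 fold change of -0.26 and did not pass. Near-identical copies in other annotated genes cover 35.5% of the Gapdh transcript, 85.6% of Eno1, 68.8% of Pgk1 and 43.1% of Pgam1, so the levels of these 4 are uncertain, and Gapdh was listed at only 1.67 and 1.58 RPKM in the controls and 5.43 and 4.68 RPKM with overexpression. Without them, 13 enzymes remained in the list, of which 10 rose and 2 fell (median 0.77), an alternative added after the data had been seen.

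Of 10 carriers of glucose and lactate, 6 passed the filter, 4 rose and 2 fell. Slc2a1, the basal glucose carrier GLUT1, was at 12.5 and 12.9 RPKM in the controls and 21.7 and 21.2 RPKM with overexpression (log2 fold change 0.73 ± 0.077 SE). Slc2a4, the insulin-responsive GLUT4, was at 58.8 and 63.8 RPKM in the controls and 91.6 and 94.2 RPKM with overexpression (0.60 ± 0.072). Slc16a1, the lactate and pyruvate carrier MCT1, was at 14.2 and 14.03 RPKM in the controls and 29.4 and 31.8 RPKM with overexpression (1.09 ± 0.078), and its chaperone Bsg rose by 0.40 ± 0.063. For these 4 genes the overexpression libraries were both above the controls. Slc2a10 fell by 0.74 and Slc2a8 by 0.29. The call of Slc2a8 was lost after removal of the dependence on length and GC (adjusted p = 0.996), without overexpression replicate 2 (0.0535) and without control replicate 2 (0.207). Genes that carry GLUT4 vesicles to the surface did not move as a group, with 5 higher, 6 lower and 4 not passing of 15 (median 0.0017). The small GTPase Rab10 rose by 0.26, while the sorting receptor Sort1 fell by 0.58 and the vesicle aminopeptidase Lnpep by 0.39. The number higher was 2 without overexpression replicate 2 and 3 without control replicate 2.

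The pyruvate dehydrogenase step moved in both its catalytic and its regulatory parts. Of 14 genes of pyruvate entry and pyruvate dehydrogenase, 10 rose, 4 fell and 0 were not called, and the median was 0.47. Pdk1, a kinase that switches the complex off, was at 9.75 and 9.41 RPKM in the controls and 23.4 and 25.8 RPKM with overexpression (log2 fold change 1.31 ± 0.076 SE, adjusted p = 1.12e-09). Pdp1, the phosphatase that switches it back on, was at 9.47 and 8.97 RPKM in the controls and 3.63 and 3.84 RPKM with overexpression (log2 fold change -1.20 ± 0.072 SE, adjusted p = 1.63e-09). The groups of both genes lay apart, in opposite directions. Kinase isoforms were split: Pdk4, induced by fasting and fatty acids, rose by 0.92 ± 0.087, and Pdk2 and Pdk3 fell by 0.31 and 0.47. Phosphatase isoforms were split as well, with Pdp2 higher by 0.46 and the regulatory subunit Pdpr lower by 0.34. The call of Pdk2 was lost after removal of length and GC dependence (adjusted p = 0.0554). The subunits of the complex Pdhb (0.62), Dld (0.66), Pdhx (0.48), Dlat (0.39) and Pdha1 (0.19; not under quantile normalization, adjusted p = 0.252) rose, and so did both subunits of the mitochondrial pyruvate carrier, Mpc2 (0.99 ± 0.06 SE) and Mpc1 (0.79 ± 0.057). Near-identical copies cover 27.2% of the Mpc1 transcript, and 23.1% of its exon bases lie in another gene.

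**Figure D2:**
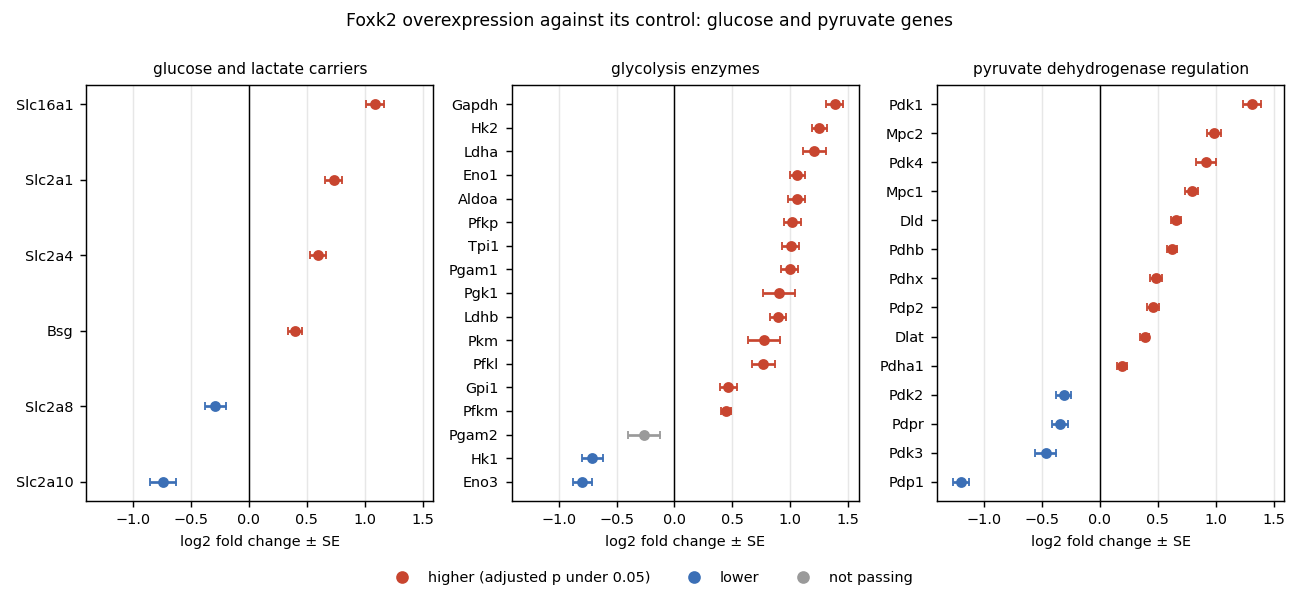
Log2 fold changes with their SE (horizontal axis, 2 overexpression against 2 control libraries) of the measured glucose and lactate carriers, glycolysis enzymes and pyruvate dehydrogenase genes; red points were higher, blue points lower and grey points did not pass. The enzymes from Gapdh (1.38) to Pfkm (0.45) lie to the right of 0, and Hk1, Eno3, Pdp1 and Slc2a10 to the left.

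The start regions of 4 glycolysis genes are shown because the text compares them with the hypoxia targets described further on: 3 genes that rose (Hk2, Ldha and Pkm) and the hexokinase that fell (Hk1). Each runs 5′ to 3′ from 250 bases before to 50 bases after a RefSeq transcription start (GRCm38.p6, the assembly of mm10). Capitals mark ACGTG, the core of the hypoxia response element, or its complement CACGT; a match on one strand can overlap a match on the other, as in CACGTG.
Hk2 (chr6:82774405-82774704, minus strand): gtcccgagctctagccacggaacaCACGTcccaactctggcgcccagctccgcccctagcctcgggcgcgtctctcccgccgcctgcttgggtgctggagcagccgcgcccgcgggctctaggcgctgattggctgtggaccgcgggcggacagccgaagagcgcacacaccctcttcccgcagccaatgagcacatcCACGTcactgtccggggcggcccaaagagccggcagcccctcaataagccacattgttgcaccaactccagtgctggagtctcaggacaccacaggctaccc
Ldha (chr7:46845554-46845853, plus strand): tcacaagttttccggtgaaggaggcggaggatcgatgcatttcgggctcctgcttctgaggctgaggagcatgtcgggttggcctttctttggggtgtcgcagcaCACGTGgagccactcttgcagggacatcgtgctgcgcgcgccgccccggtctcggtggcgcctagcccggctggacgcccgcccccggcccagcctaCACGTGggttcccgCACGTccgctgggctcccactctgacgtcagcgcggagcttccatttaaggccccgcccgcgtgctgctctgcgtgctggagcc
Pkm (chr9:59656977-59657276, plus strand): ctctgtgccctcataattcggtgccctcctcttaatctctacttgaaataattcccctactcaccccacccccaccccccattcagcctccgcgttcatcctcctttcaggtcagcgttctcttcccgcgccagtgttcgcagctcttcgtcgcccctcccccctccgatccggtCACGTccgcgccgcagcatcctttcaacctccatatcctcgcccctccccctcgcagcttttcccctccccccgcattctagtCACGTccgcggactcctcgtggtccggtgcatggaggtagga
Hk1 (chr10:62340372-62340671, minus strand): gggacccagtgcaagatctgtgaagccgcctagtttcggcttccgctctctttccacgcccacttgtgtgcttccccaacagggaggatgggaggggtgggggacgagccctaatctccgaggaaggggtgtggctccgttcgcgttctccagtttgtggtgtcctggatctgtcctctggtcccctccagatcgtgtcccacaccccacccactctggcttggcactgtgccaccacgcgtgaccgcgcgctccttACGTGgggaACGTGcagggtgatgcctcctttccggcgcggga
The letters occur 5 times in the Ldha region and 2 times each in those of Hk2, Pkm and Hk1. Ldha, Pkm and Hk1 each have a further start region in the table, not shown, with 0 matches. In the RefSeq table, 10 of 23 start regions of the glycolysis enzymes that rose and 1 of 3 of those that fell held a match. Over 11327 start regions of 8906 tested genes, 26.0% held the letters, against 29.5% of those of genes that rose, 23.2% of those that fell, 31.8% of those that rose 2-fold or more and 18.2% of those that fell 2-fold or more. GTAAACA, the core forkhead site, or its complement TGTTTAC stood in 2.46% of start regions, in 2.34% of those of genes that rose and in 2.91% of those of genes that fell. It was in none of the glycolysis start regions in the table. These are counts of letters in a short window, with no test, and do not show binding.

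Side routes of glucose moved less evenly. Of 20 genes of glycogen metabolism and the PFKFB enzymes, 18 passed the filter and 10 rose, 2 fell and 6 were not called, and the median was 0.25. Ppp1r3b, which brings protein phosphatase 1 to glycogen, was at 0.788 and 0.852 RPKM in the controls and 5.49 and 5.49 RPKM with overexpression and rose by 2.18 ± 0.11 (SE). Stbd1, which tethers glycogen to membranes, rose by 1.48 ± 0.097. Pygb, the brain-type phosphorylase (-0.49), and the lysosomal glucosidase Gaa (-0.59) were the members that fell. Of 11 genes of the pentose phosphate pathway and NADPH supply, 6 rose, 3 fell and 2 were not called, and the median was 0.15. Transketolase Tkt rose by 1.29 ± 0.059, Rpe by 1.10 ± 0.069 and the malic enzyme Me1 by 0.86 ± 0.085. The mitochondrial NADPH source Idh2 fell by 0.74, with Idh1 at -0.17 and H6pd at -0.23. The call of H6pd was lost after removal of length and GC dependence (adjusted p = 0.965), and that of Idh1 in a model of the 4 libraries alone (0.0567).

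Nuclear genes of the citric acid cycle and the respiratory chain were higher in most cases, mostly by less than 2-fold. Of 23 genes of the citric acid cycle and anaplerosis, 22 passed the filter and 16 rose, 2 fell and 4 were not called, and the median was 0.42. Idh3a, the catalytic subunit of the NAD-dependent isocitrate dehydrogenase, rose by 1.17 ± 0.057 (SE), the iron-sulphur subunit of succinate dehydrogenase Sdhb by 1.002 ± 0.045 and the succinyl-CoA ligase subunit Sucla2 by 0.81 ± 0.052. Me2 fell by 0.42. Pyruvate carboxylase Pcx passed as lower at -0.17, a call lost under several alternatives and of the opposite sign (0.059) after removal of length and GC dependence. Of 36 complex I subunits, 33 rose, 1 fell and 2 were not called, and the median was 0.46. Ndufb6 rose by 0.74 ± 0.042, with 39.0% of its exon bases shared with Smim27, Ndufv2 by 0.65 ± 0.041 and Ndufb9 by 0.60 ± 0.044, and the member that fell was Ndufa7 (-0.20). Of 35 subunits of complexes III to V, 34 rose, 0 fell and 1 was not called, and the median was 0.56. Their summed level was 6650.0 and 7130.0 RPKM in the controls and 9944 and 10240.0 RPKM with overexpression. Atp5a1, a catalytic subunit of ATP synthase, rose by 0.66 ± 0.035, Atp5f1 by 0.78 ± 0.041 and the cytochrome c1 gene Cyc1 by 0.77 ± 0.048.

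Genes that build mitochondria moved the same way less uniformly. Of 22 genes of mitochondrial biogenesis and dynamics, 16 rose, 3 fell and 3 were not called, and the median was 0.22. Tfam, which packages and transcribes mitochondrial DNA, rose by 0.46 ± 0.046 (SE), the fusion GTPase Opa1 by 0.69 ± 0.051, the fission GTPase Dnm1l by 0.48 ± 0.051 and the import pore Tomm40 by 0.75 ± 0.061. The mitophagy kinase Pink1 fell by 0.42. The DNA polymerase Polg (-0.18) and Tfb2m (-0.15; 48.5% of its transcript in near-identical copies) passed as lower, Polg not after removal of length and GC dependence (adjusted p = 0.264) and Tfb2m not without overexpression replicate 2 (0.2501), control replicate 1 (0.0980) or control replicate 2 (0.132).

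Messages encoded in the mitochondrial genome did not follow the nuclear subunits. Of 13, 2 rose, 0 fell and 11 were not called (median -0.091). The complex I message mt-Nd5 was at 2157 and 1950.0 RPKM in the controls and 2378 and 2769.8 RPKM with overexpression (log2 fold change 0.32 ± 0.084 SE) and mt-Nd6 at 1659 and 1532 RPKM in the controls and 1908 and 2273 RPKM with overexpression (0.39 ± 0.099). Both calls were lost without overexpression replicate 2 (adjusted p = 0.0755 and 0.0714) and after removal of length and GC dependence (0.188 and 0.355), and that of mt-Nd5 also without control replicate 2 (0.0549). Other messages were low in a single library. The cytochrome oxidase message mt-Co2 was at 11312 and 10333 RPKM in the controls, 11729 RPKM in overexpression replicate 1 and 1525 RPKM in overexpression replicate 2. The same library was low for mt-Atp6, mt-Co3, mt-Nd3, mt-Nd4l and mt-Atp8. Near-identical nuclear copies cover nearly the whole transcripts of 5 of these, and mt-Atp8 overlaps mt-Atp6. Without overexpression replicate 1, so with replicate 2 alone, 7 of the 13 passed as lower. Among the 6 messages left after those with copies were set aside, 2 rose and 0 fell (median 0.11). Levels of mt-Co2 were lower still in the scrambled shRNA controls of the knockdown, at 737 and 113 RPKM, and were 4732 and 10779 RPKM in Foxk2 knockdown, so this message varied more between control sets than with Foxk2 overexpression. The share of reads placed on the copies was not tested. The genes mt-Co2, mt-Atp6 and the others named here were chosen after their values were seen.

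**Figure D3:**
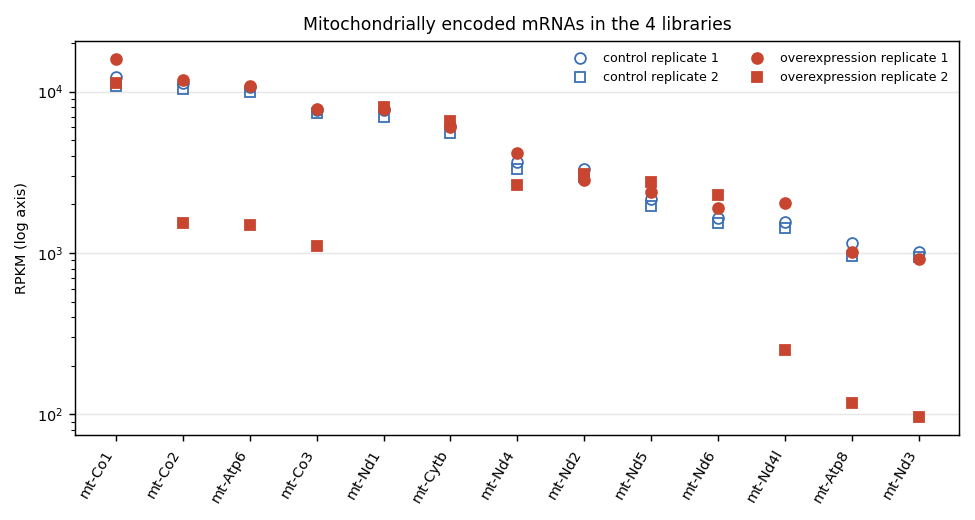
RPKM on a log axis of the 13 mitochondrially encoded mRNAs in each of the 4 libraries, open symbols for controls and filled symbols for Foxk2 overexpression. Overexpression replicate 2 (filled squares) lies far below the other 3 libraries for mt-Co2 (1525 RPKM), mt-Atp6, mt-Co3, mt-Nd4l, mt-Atp8 and mt-Nd3, and among or above them for mt-Nd1, mt-Cytb, mt-Nd5 and mt-Nd6.

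Genes that mark brown and beige fat were higher where they passed the filter, which the defining gene of heat production did not. Of 14 thermogenic and brown fat genes, 7 passed the filter and all 7 of these rose (median 1.92), while the 7 under 0.5 RPKM in all 4 libraries included the uncoupling protein gene Ucp1. Elovl3, which makes very long chain fatty acids in brown fat, was at 1.89 and 1.63 RPKM in the controls and 9.16 and 10.7 RPKM with overexpression (log2 fold change 2.21 ± 0.14 SE, adjusted p = 2.76e-09). Cox8b, a muscle- and brown fat-type cytochrome oxidase subunit, was at 42.6 and 38.8 RPKM in the controls and 149 and 162 RPKM with overexpression (log2 fold change 1.92 ± 0.12 SE), and Cox7a1 was at 3.98 and 3.73 RPKM in the controls and 20.2 and 21.9 RPKM with overexpression (2.30 ± 0.16). Groups of these genes lay apart, which their choice by smallest p favoured. Cidea, described among the largest rises, belongs to the same list.

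Cholesterol synthesis genes were mostly higher. Of 26 genes of cholesterol synthesis and uptake, 18 rose, 1 fell and 7 were not called, and the median was 0.42. Cyp51, which removes a methyl group from lanosterol, was at 60.5 and 63.7 RPKM in the controls and 203 and 207 RPKM with overexpression (log2 fold change 1.71 ± 0.093 SE). Msmo1 and Hmgcs1, of the same pathway, rose by 0.87 ± 0.054 and 0.92 ± 0.062. Of the proteins that hold back the sterol sensor, Insig2 rose by 1.003 ± 0.069 and Insig1, itself a sterol-regulated target, fell by 0.31.

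Fatty acid synthesis did not move as one list. Of 18 genes of fatty acid synthesis, 9 rose, 6 fell and 3 were not called, and the median was 0.14. Elovl6, which lengthens palmitate to stearate, was at 0.882 and 0.823 RPKM in the controls and 5.40 and 5.60 RPKM with overexpression (log2 fold change 2.15 ± 0.091 SE, adjusted p = 4.4e-11). Elovl5, an elongase of polyunsaturated fatty acids, went from 35.1 and 36.3 to 105 and 102 RPKM (1.52 ± 0.046), and the lipogenic regulator Thrsp rose by 1.15 ± 0.068. The desaturases Fads1 (-0.43), Fads2 (-0.25) and Fads3 (-0.51) and the carbohydrate-sensing factor Mlxip (-0.33) fell. The call of Fads2 was lost without overexpression replicate 2 (adjusted p = 0.0542) and without control replicate 2 (0.0783), and the number lower in the list fell to 3 without control replicate 2. The median was 0.013 under quantile normalization and 0.28 without control replicate 2.

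Triglyceride assembly leaned upward. Of 18 genes of triglyceride assembly, 17 passed the filter and 12 rose, 1 fell and 4 were not called, and the median was 0.41. Dgat2, which adds the last fatty acid, was at 239.7 and 249 RPKM in the controls and 863 and 872 RPKM with overexpression (log2 fold change 1.83 ± 0.061 SE, adjusted p = 3.38e-12). Both overexpression values were above both controls, which the choice by smallest p favoured. Agpat2 and the droplet-forming protein gene Bscl2, each of which causes lipodystrophy when lost, rose by 0.65 ± 0.046 and 0.68 ± 0.062. The phosphatidate phosphatase Lpin3 rose by 1.58 ± 0.10, and Gpat3 fell by 0.33, with 37.4% of its exon bases shared with other genes. Glycerol supply rose in part, with the glycerol kinase Gk at 1.55 ± 0.072 and Pck1, the key enzyme of glyceroneogenesis, at 2.68 and 2.43 RPKM in the controls and 9.41 and 10.8 RPKM with overexpression (1.80 ± 0.12). The glycerol channel Aqp7 fell by 0.78. Gpd1 passed as higher at 0.18, a call lost under quantile normalization (adjusted p = 0.888) and without overexpression replicate 1 (0.0700), overexpression replicate 2 (0.0698) or control replicate 1 (0.167).

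Lipolysis and droplet coat genes were divided. Of 22 genes of lipolysis and the lipid droplet coat, 18 passed the filter and 6 rose, 8 fell and 4 were not called, and the median was -0.051. The CIDE proteins moved in opposite directions: Cidea rose, as above, and Cidec, the droplet fusion protein of white fat, was at 2982 and 3043 RPKM in the controls and 1129.6 and 1102 RPKM with overexpression (log2 fold change -1.43 ± 0.061 SE, adjusted p = 4.77e-11). Adrb3, the main receptor for catecholamines in mouse fat, was at 7.58 and 5.78 RPKM in the controls and 1.10 and 1.22 RPKM with overexpression (log2 fold change -2.10 ± 0.15 SE). The exons of Adrb3 share 24.9% of their bases with another annotated gene, so its level is uncertain. Hormone-sensitive lipase Lipe (-0.72 ± 0.042) and the perilipin Plin4 (-0.72 ± 0.056) fell. G0s2, which inhibits the first lipase, rose by 1.09 ± 0.089, and Pde3b, through which insulin restrains lipolysis, rose by 0.96 ± 0.053.

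Of 30 genes of fatty acid uptake and oxidation, 28 passed the filter and 20 rose, 7 fell and 1 was not called, and the median was 0.36. Members that rose included the mitochondrial genes Etfa (0.77 ± 0.043 SE), Echs1 (0.57 ± 0.046) and the carnitine carrier Slc25a20 (0.72 ± 0.056). Among those that fell, Cpt1a, which commits fatty acids to oxidation, was at 14.6 and 14.6 RPKM in the controls and 6.94 and 7.61 RPKM with overexpression (-0.96 ± 0.087), and Slc27a1, an uptake protein, fell by 0.999. The fatty acid binding proteins were split between Fabp5 (higher by 1.38) and the adipocyte form Fabp4 (lower by 0.58), and the uptake receptor Cd36 fell by 0.61. Of 18 genes of branched-chain amino acid breakdown, 17 passed the filter and 13 rose, 3 fell and 1 was not called, and the median was 0.28. Dbt and Bckdhb, subunits of the dehydrogenase of this pathway, rose by 1.12 ± 0.064 and 0.81 ± 0.051, and its activating phosphatase Ppm1k by 0.93 ± 0.08. The partner subunit Bckdha passed as lower (-0.30), with 61.7% of its exon bases shared with another gene.

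Several products of mature fat cells were lower while others were higher. Of 21 adipocyte markers, 18 passed the filter and 5 rose, 10 fell and 3 were not called, and the median was -0.53. Their summed level was 14620.0 and 14750.0 RPKM in the controls and 10000.0 and 10070.0 RPKM with overexpression. Adiponectin, Adipoq, was at 1605 and 1657 RPKM in the controls and 690.2 and 647 RPKM with overexpression (log2 fold change -1.29 ± 0.053 SE, adjusted p = 3.54e-11). Adipsin, Cfd, was at 3374 and 3417 RPKM in the controls and 2023 and 1995 RPKM with overexpression (-0.76 ± 0.049), and the nuclear receptor Pparg, which drives adipocyte differentiation and is the target of troglitazone, was at 127 and 124 RPKM in the controls and 87.8 and 91.8 RPKM with overexpression (-0.48 ± 0.033). As their choice by smallest p favoured, all 3 were below both controls in both overexpression libraries. Resistin, Retn, was above them, at 176 and 189 RPKM in the controls and 389 and 392 RPKM with overexpression (log2 fold change 1.10 ± 0.061 SE, adjusted p = 7.16e-10). Lipoprotein lipase Lpl (0.26), Adig (0.53), Apoe (0.76) and the GLUT4 gene Slc2a4 rose. In whole cultures, fewer cells of a type and less RNA per cell cannot be told apart.

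Of 24 regulators of fat cell differentiation, 22 passed the filter and 5 rose, 8 fell and 9 were not called, and the median was -0.075. Beside the fall of Pparg, the factors Klf5 (-1.56) and Zfp423 (-0.65) and the preadipocyte inhibitor Dlk1 (-1.62 ± 0.11 SE) fell, Klf5 having passed the filter through the controls alone, and Klf15 (0.99 ± 0.072), Klf9 (0.37), Cebpb (0.59) and the inhibitor of helix-loop-helix factors Id2 (0.95 ± 0.15) rose. After removal of length and GC dependence, 9 regulators rose and the median was 0.098, of the opposite sign. Among 26 secreted adipocyte factors, 20 passed the filter, 8 rose and 9 fell. Nrg4, a secreted factor of brown fat, rose by 1.32 ± 0.063, apelin, Apln, by 1.11 ± 0.12 and Vegfa by 0.49 ± 0.056. Haptoglobin, Hp, fell by 1.43, Angptl2 by 1.20 and the matrix protein Sparc by 0.99.

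Fibroblast and preadipocyte genes were lower with almost no exception. Of 25 fibroblast and preadipocyte markers, 20 passed the filter and 0 rose, 19 fell and 1 was not called, and the median was -0.92. Their summed level was 1505 and 1544 RPKM in the controls and 783 and 774 RPKM with overexpression. Pdgfra, the receptor that marks adipose progenitors, was at 23.7 and 22.1 RPKM in the controls and 6.22 and 6.01 RPKM with overexpression (log2 fold change -1.82 ± 0.068 SE, adjusted p = 1.09e-11). The proteoglycan decorin, Dcn, was at 70.1 and 69.4 RPKM in the controls and 15.5 and 15.5 RPKM with overexpression (log2 fold change -2.14 ± 0.086 SE, adjusted p = 2.88e-11). Collagen III, Col3a1, was at 168 and 176 RPKM in the controls and 79.96 and 76.1 RPKM with overexpression (log2 fold change -1.13 ± 0.058 SE) and periostin, Postn, at 23.6 and 24.0 RPKM in the controls and 7.34 and 7.94 RPKM with overexpression (-1.58 ± 0.068). In none of these did a library of one group reach the other. Their choice by smallest p favoured this, and groups lay apart for 78.2% of all genes tested. The markers of mature fat cells that fell and these stromal markers moved in the same direction. The part of cell composition in either was not tested.

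The extracellular matrix list behaved likewise. Of 46 matrix genes, 43 passed the filter and 2 rose, 34 fell and 7 were not called, and the median was -0.94, and their summed level was 3608 and 3739 RPKM in the controls and 1894 and 1851 RPKM with overexpression. The gelatinase Mmp2 was at 101 and 104 RPKM in the controls and 23.4 and 23.4 RPKM with overexpression (log2 fold change -2.10 ± 0.065 SE, adjusted p = 1.61e-12), and collagen VI, Col6a3, fell by 1.23. Of the 2 members that rose, P4ha1, a prolyl hydroxylase that matures collagen and a known hypoxia target, rose by 1.40 ± 0.068 (SE), and tenascin C, Tnc, by 0.31. The call of Tnc was lost without each of the 4 libraries in turn (adjusted p 0.0542 to 0.174). Of 21 myofibroblast and contractile genes, 18 passed the filter and 1 rose, 12 fell and 5 were not called, and the median was -0.41. Flna, Cnn2 and Tpm1, of the actin cytoskeleton, fell by 0.88, 1.04 and 0.73, and their co-activator Mrtfa by 0.54. The TGF-beta receptor Tgfbr2 was the member that rose (0.87 ± 0.048). Of 30 Wnt pathway genes, 19 passed the filter and 0 rose, 15 fell and 4 were not called, and the median was -0.60. Lef1, a transcription factor of the pathway that stayed above 0.5 RPKM in controls alone, fell by 1.37. The co-receptor Lrp5 (-0.71), the cytoplasmic relay Dvl2 (-0.49), which also carries Foxk proteins to the nucleus, and the secreted Ccn5 (-1.08) fell.

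**Figure D4:**
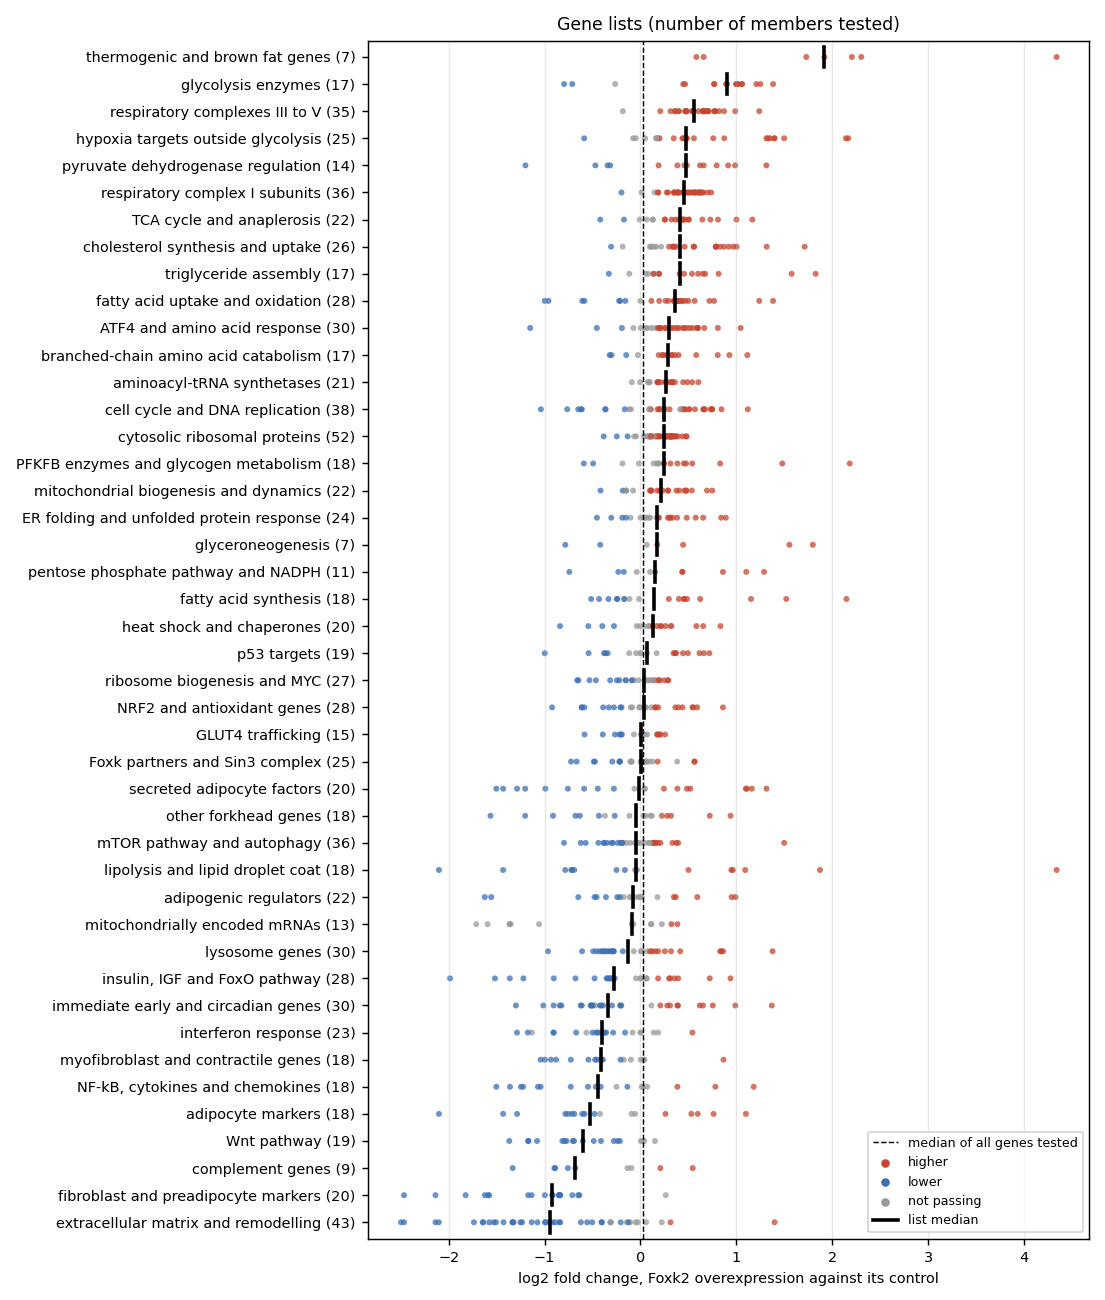
Log2 fold change (horizontal axis) of every tested member of the lists with at least 7 members tested, red where higher, blue where lower and grey where the test was not passed, with a black bar at each list's median and a dashed line at the median of all genes tested (0.025). Thermogenic genes (median 1.92) and glycolysis enzymes (0.90) stand at the top, and fibroblast markers (-0.92) and matrix genes (-0.94) at the bottom.

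More insulin and IGF pathway genes fell than rose. Of 31 genes of the insulin, IGF and FoxO pathway, 28 passed the filter and 7 rose, 15 fell and 6 were not called, and the median was -0.28. The IGF binding proteins Igfbp3, at 20.7 and 21.05 RPKM in the controls and 4.87 and 4.93 RPKM with overexpression (-1.99 ± 0.051 SE), and Igfbp7 (-1.52 ± 0.063) fell, and so did Txnip (-0.90 ± 0.053), an inhibitor of glucose uptake. Igf2 fell by 1.36, with 64.5% of its exon bases shared with other annotated genes. Foxo1, the forkhead factor that insulin excludes from the nucleus, was at 8.02 and 7.75 RPKM in the controls and 13.3 and 13.4 RPKM with overexpression and rose by 0.72 ± 0.054. Foxo6 rose by 0.94 and the kinase regulatory subunit Pik3r1 by 0.36. After removal of length and GC dependence, the median was -0.075.

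Autophagy genes, which FOXK proteins are known to repress, moved in both directions. They were counted together with mTOR pathway genes, so the counts and medians are not theirs alone. Of 36 genes of the mTOR pathway and autophagy, 10 rose, 14 fell and 12 were not called, and the median was -0.046, and the median was 0.057 after removal of length and GC dependence. The shares were 27.8% higher and 38.9% lower, beside 28.6% and 26.6% of all genes tested. Ddit4, an inhibitor of mTOR complex 1 induced by hypoxia and stress, was at 17.0 and 19.5 RPKM in the controls and 50.7 and 54.2 RPKM with overexpression (log2 fold change 1.499 ± 0.15 SE, adjusted p = 4.97e-07). The mTOR inhibitor Deptor rose by 0.39, and the autophagy conjugation genes Atg3 and Atg5 by 0.37 and 0.33. Atg7 (-0.57 ± 0.057), Atg12 (-0.44), Gabarapl1 (-0.62 ± 0.062; 28.3% of exon bases in another gene) and the phosphoinositide-binding Wipi1 (-0.80 ± 0.063) fell. The number higher was 5 without overexpression replicate 2 or control replicate 2 and 6 without control replicate 1.

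Most genes of the Sin3 complex and other Foxk partners did not pass the test. Of 25 with Foxk2 and Foxk1 among them, 3 rose, 8 fell and 14 did not pass. Hdac2, a deacetylase of the complex, rose by 0.57 ± 0.054 (SE), and Bap1, the deubiquitinase that Foxk proteins bring to DNA, by 0.18, a call lost without overexpression replicate 2 (adjusted p = 0.0514) or control replicate 1 (0.0556). The members that fell beside Foxk1 were Sap30l (-0.72), Arid4a (-0.22), Brms1 (-0.47), Asxl1 (-0.29), Ogt (-0.22), Dvl2 (-0.49) and Dvl3 (-0.21). Brms1 shares 79.0% of its exon bases with another annotated gene. Calls were lost for Arid4a without overexpression replicate 1 (adjusted p = 0.0755) or control replicate 1 (0.0631), for Ogt without the same libraries (0.0609 and 0.112) or in a model of the 4 alone (0.0558), and for Dvl3 without overexpression replicate 2 (0.186), control replicate 1 (0.0516) or control replicate 2 (0.129). The scaffolds Sin3a and Sin3b had log2 fold changes of 0.095 and 0.0059. The number lower was 5 without control replicate 1, and the number higher was 6 after removal of length and GC dependence. Of 24 other forkhead genes, 18 passed the filter, 5 rose and 7 fell. As shares of those tested, 27.8% were higher and 38.9% lower, beside 28.6% and 26.6% of all genes tested. Foxo3 (-0.68 ± 0.066), Foxp4 (-0.63 ± 0.091) and Foxf2 (-1.56 ± 0.11) were the lower ones by smallest p, beside the rises of Foxo1 and Foxo6.

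Targets of hypoxia-inducible factors outside glycolysis were mostly higher. Of 28 such targets, 25 passed the filter and 19 rose, 1 fell and 5 were not called, and the median was 0.48. P4ha1 was at 9.46 and 8.89 RPKM in the controls and 24.5 and 25.5 RPKM with overexpression and Pdk1 was described above. Fam162a, a mitochondrial protein, rose by 1.33 ± 0.084 (SE), with 19.8% of its exon bases shared with Wdr5b, and the cytokinesis protein gene Anln by 1.35 ± 0.086. Adrenomedullin, Adm, went against the rest, at 8.56 and 8.33 RPKM in the controls and 5.70 and 5.21 RPKM with overexpression (log2 fold change -0.59 ± 0.095 SE, adjusted p = 7.65e-05). Of 29 start regions of these genes in the RefSeq table, 16 held ACGTG or CACGT: 12 of 23 of genes that rose, 4 of 5 of genes that did not pass and 0 of 1 of the gene that fell, beside 26.0% of start regions of all genes tested.

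Amino acid response and protein synthesis genes were higher more often than lower. Of 31 genes of the ATF4 amino acid response, 30 passed the filter and 21 rose, 3 fell and 6 were not called, and the median was 0.30. Gpt2, the mitochondrial alanine transaminase, rose by 1.05 ± 0.033 (SE), asparagine synthetase, Asns, by 0.55 ± 0.043 and Psat1, of serine synthesis, by 0.60 ± 0.051. Phgdh, the first enzyme of serine synthesis, was at 55.5 and 61.2 RPKM in the controls and 25.9 and 26.1 RPKM with overexpression and fell by 1.15, so consecutive steps of that pathway moved in opposite directions. Mthfd1l rose by 0.67 and Mthfd2 fell by 0.19. Of 21 aminoacyl-tRNA synthetases, 16 rose, 0 fell and 5 were not called, and the median was 0.27, among them Gars (0.60) and Eprs (0.54). Of 52 cytosolic ribosomal proteins, 35 rose, 3 fell and 14 were not called, and the median was 0.24. Near-identical copies cover part of 26 of the 52, and of the other 26, 19 rose and 1 fell (median 0.24). Under quantile normalization 23 of the 52 rose. Of 28 genes of ribosome biogenesis and the MYC network, 27 passed the filter, 6 rose and 9 fell, Myc itself by 0.53. In this list 22.2% were higher and 33.3% lower, beside 28.6% and 26.6% of all genes tested. The number higher was 2 without overexpression replicate 2 and 3 without overexpression replicate 1 or control replicate 2.

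Protein folding genes moved in both directions. Of 21 heat shock and chaperone genes, 20 passed the filter and 9 rose, 4 fell and 7 were not called, and the median was 0.13. The chaperones of the mitochondrial matrix Hspd1 (0.58 ± 0.044 SE), Hspe1 (0.83 ± 0.048; 21.6% of its transcript in near-identical copies) and Hspa9 (0.65 ± 0.05) rose, and the cytosolic small heat shock protein Cryab (-0.84), Bag3 (-0.40) and the factor Hsf1 (-0.28) fell. The call of Hsf1 was lost without overexpression replicate 2 (adjusted p = 0.0535) or control replicate 1 (0.0604). Of 25 genes of folding in the endoplasmic reticulum, 24 passed the filter and 12 rose, 4 fell and 8 were not called, and the median was 0.18. Herpud1 (0.89 ± 0.054), Dnajb9 (0.84 ± 0.053) and the chaperone Hspa5 (0.58 ± 0.042) rose, and the disulphide isomerase Pdia4 (-0.45) and P4hb (-0.30) fell.

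Antioxidant genes were divided. Of 29 genes of NRF2 and antioxidant defence, 28 passed the filter and 10 rose, 9 fell and 9 were not called, and the median was 0.034, and the median was -0.012 after removal of length and GC dependence and also below 0 under quantile normalization. The mitochondrial enzymes Sod2 (0.54 ± 0.046 SE) and Prdx3 (0.40 ± 0.043) and the haem oxygenase Hmox1 (0.55 ± 0.062) rose, and Mgst3 (-0.92 ± 0.063), Gsta4 (-0.58 ± 0.05) and Nqo1 (-0.61 ± 0.07) fell. Of 21 p53 targets, 19 passed the filter and 8 rose, 5 fell and 6 were not called, and the median was 0.068. Cdkn1a, the cell cycle inhibitor p21, was at 111 and 115 RPKM in the controls and 178 and 179.8 RPKM with overexpression (0.66 ± 0.062), Ccng1 rose by 0.50 ± 0.059 and the p53 antagonist Mdm2 by 0.37, the last not under quantile normalization (adjusted p = 0.0510). Phlda3 (-0.998 ± 0.097) and Trp53 itself (-0.34) fell.

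Cell cycle genes moved in both directions. Of 41 genes of the cell cycle and DNA replication, 38 passed the filter and 21 rose, 8 fell and 9 were not called, and the median was 0.25. The D-type cyclins, which act at entry to the cycle, fell: Ccnd1 was at 9.48 and 8.86 RPKM in the controls and 4.35 and 4.06 RPKM with overexpression (-1.04 ± 0.062 SE), with 23.4% of its exon bases shared with another gene, and Ccnd3 and Ccnd2 fell by 0.76 and 0.37. Mitotic genes were near 0 in the controls. The centromeric histone gene Cenpa was at 0.274 and 0.223 RPKM in the controls and 1.31 and 0.962 RPKM with overexpression (1.12 ± 0.12) and cyclin A, Ccna2, at 0.345 and 0.305 RPKM in the controls and 1.03 and 0.936 RPKM with overexpression (0.85 ± 0.10). For 9 of the 21 members that rose, the controls were both under 0.5 RPKM, so these passed the filter through the overexpression libraries alone, and with a mean of 1 RPKM or more required 12 members rose.

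Immune and inflammatory genes that passed the test were mostly lower. Of 35 genes of NF-kB, cytokines and chemokines, 18 passed the filter and 3 rose, 11 fell and 4 were not called, and the median was -0.44. Chemokines that fell included Cxcl12, at 16.1 and 15.9 RPKM in the controls and 6.52 and 6.38 RPKM with overexpression (-1.25 ± 0.063 SE), Ccl2 (-1.50 ± 0.12), Ccl9 (-1.22 ± 0.096) and Cx3cl1 (-1.07 ± 0.078). The inhibitor of NF-kB, Nfkbia, was at 38.2 and 37.6 RPKM in the controls and 85.1 and 88.0 RPKM with overexpression and rose by 1.18 ± 0.071, and Nfkbiz by 0.78 ± 0.086. After removal of length and GC dependence, the median was -0.19. Of 33 interferon response genes, 23 passed the filter and 1 rose, 12 fell and 10 were not called, and the median was -0.40. Of those tested, 3 passed the filter through the controls alone and so had to lie lower. The peptide transporter Tap1 (-0.91 ± 0.15) and B2m (-0.37) fell, and of the class I genes H2-D1 fell (-0.43) and H2-K1 rose (0.54), which share sequence and are uncertain. The number lower in this list was 3 without control replicate 2 and 6 without overexpression replicate 1, so it rests on these libraries. Of 20 complement genes, 9 passed the filter and 2 rose, 5 fell and 2 were not called, and the median was -0.68. C1s1 (-1.33) and C1ra (-0.89), the proteases of the first component, fell with adipsin, Clu (-0.68) and Masp1 (-0.90), and C4b rose (0.55 ± 0.12). C3 passed as higher at 0.21, but not in a model of the 4 libraries alone (adjusted p = 0.0589).

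Of 34 immediate early and circadian genes, 30 passed the filter and 10 rose, 17 fell and 3 were not called, and the median was -0.34, with a median of -0.12 after removal of length and GC dependence. Egr1, an early response factor, was at 4.19 and 3.88 RPKM in the controls and 1.35 and 1.34 RPKM with overexpression (-1.30 ± 0.11 SE), and Klf6 fell by 0.82. The clock repressors were split. Bhlhe40, which hypoxia also induces, was at 11.7 and 10.8 RPKM in the controls and 29.5 and 30.3 RPKM with overexpression (1.37 ± 0.073), and its relative Bhlhe41 fell by 0.84. Cry1 rose by 0.99 ± 0.097 and Cry2 fell by 0.51, and Clock rose by 0.65 ± 0.059. Of 32 lysosome genes, 30 passed the filter and 11 rose, 15 fell and 4 were not called, and the median was -0.13. Proton pump subunits Atp6v1a (0.86 ± 0.048) and Atp6v1h (0.83 ± 0.056), the cholesterol exporter Npc1 (0.84 ± 0.07) and the protease Ctsl, at 402 and 393 RPKM in the controls and 948 and 1127 RPKM with overexpression (1.38 ± 0.079; 26.8% of its exon bases lie in other genes), rose. Hydrolases such as Hexa (-0.39) and Glb1 (-0.61) and progranulin, Grn (-0.49), fell. The number higher was 7 without overexpression replicate 2.

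Markers of other cell types were measured to describe what the cultures hold. Of 15 macrophage markers, 12 were under 0.5 RPKM in all 4 libraries and 6 were at 0 throughout, including the defining Adgre1. The list's summed level, 152 and 162 RPKM in the controls and 129 and 131 RPKM with overexpression, came nearly all from Lgals3 (-0.27), which many cells make. Cd68 was at 2.95 and 3.42 RPKM in the controls and 3.01 and 3.07 RPKM with overexpression. Cd14, at 3.06 and 3.25 RPKM in the controls and 2.12 and 1.64 RPKM with overexpression, fell by 0.63. All 9 endothelial markers were under 0.5 RPKM in all 4 libraries. Of 16 skeletal muscle markers, Myod1, Myog and Ckm were at 0 in all 4 libraries, and 4 passed the filter. Among the genes that passed it, Tnnc1 was not called, at 0.77 and 0.48 RPKM in the controls and 0.67 and 0.83 RPKM with overexpression. Mb, myoglobin, was at 0.420 and 0.323 RPKM in the controls and 3.56 and 3.26 RPKM with overexpression and passed the filter through overexpression alone (log2 fold change 2.17 ± 0.083 SE; 31.9% of its exon bases lie in other genes). Desmin, Des, was at 4.55 and 5.07 RPKM in the controls and 10.7 and 11.6 RPKM with overexpression and rose by 1.13 ± 0.076. Acta1 passed as lower at -0.46, a call lost without overexpression replicate 2 (adjusted p = 0.221), control replicate 1 (0.0757) or control replicate 2 (0.165) and after removal of length and GC dependence (0.116). Of 10 epithelial markers, Krt18 alone passed the filter, and it rose by 1.004 ± 0.12, with Epcam and Cdh1 at or near 0. Of 11 bone and cartilage markers, 6 passed the filter and 2 rose, 2 fell and 2 were not called. The list summed to 20.4 and 20.2 RPKM in the controls and 23.5 and 26.0 RPKM with overexpression. Comp fell by 0.67 and Runx2 by 0.29. Ibsp, at 0.241 and 0.136 RPKM in the controls and 1.76 and 2.50 RPKM with overexpression, and alkaline phosphatase, Alpl, at 0.885 and 1.02 RPKM in the controls and 2.40 and 2.81 RPKM with overexpression, rose by 1.92 and 1.10, Ibsp having passed the filter through overexpression alone. Their part in the results above was not tested.

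Foxk2 knockdown has its own scrambled shRNA controls, so its fold changes share no library with those of overexpression. The control sets differed in level for some genes and not for others. Means in empty vector and scrambled shRNA controls were 1.24 and 3.85 RPKM for Cidea and 582 and 210 RPKM for Ccdc80. For Morc4 they were 8.01 and 8.06 RPKM. The part of these differences in the inverse relation was not tested. In that comparison 2748 genes (21.4%) were higher and 2587 (20.1%) lower, 41.5% in either direction. Across genes, the fold changes of overexpression and knockdown were inversely related (Pearson r = -0.607 over 12870 genes and -0.78 over the 621 genes changed 2-fold or more by overexpression, as descriptions across genes, which are not independent replicates). Of 7111 genes called in overexpression and 5335 called in knockdown, 3566 were called in both with opposite signs, which is 50.2% of the former and 66.8% of the latter. A further 354 were called in both with the same sign (4.98% and 6.64%). Of genes that rose with overexpression, 80.4% had a negative fold change in knockdown, beside 50.2% of all genes tested. Of genes that fell, 80.5% had a positive one, beside 49.7%. The effect of overexpression differed from that of knockdown for 7540 genes (58.6%) by a contrast of the 2 effects in the same limma model.

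Cidea and Dcn were among the genes with the largest opposite changes. Cidea, higher with overexpression by 4.34, was at 4.08 and 3.61 RPKM in the scrambled shRNA controls and 0.219 and 0.224 RPKM in knockdown (log2 fold change -2.59 ± 0.14 SE, adjusted p = 1.48e-09). The proton-coupled amino acid carrier Slc36a2, at 2.39 and 2.55 RPKM in the controls and 11.9 and 11.9 RPKM with overexpression (2.06 ± 0.12), had -2.01 in knockdown. Apoc1 (2.75 and -1.96), Pck1 (1.80 and -1.71), Elovl3 (2.21 and -1.56), Dgat2 (1.83 and -1.39), Cmbl (1.70 and -1.76) and the nicotinic acid receptor Hcar2 (1.29 and -1.40) completed the 8 with the largest opposite changes of this sign. In the other direction, Dcn fell by 2.14 with overexpression and was at 42.9 and 41.9 RPKM in the scrambled shRNA controls and 179 and 191 RPKM in knockdown (2.11 ± 0.086). Clec3b (-2.71 and 1.99), Mmp2 (-2.10 and 1.82), Pdgfra (-1.82 and 1.96), the growth factor Ptn (-1.82 and 2.13), the stromal antigen Cd248 (-2.09 and 1.79), the proteoglycan Ogn (-1.74 and 1.89) and Ccl6 (-2.29 and 1.72) followed.

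Some genes moved the same way whether Foxk2 was raised or lowered. Pmepa1, an antagonist of TGF-beta signalling, rose by 0.96 ± 0.093 (SE) with overexpression and by 1.12 ± 0.093 with knockdown. Id2 (0.95 and 0.75), the co-receptor Cdon (0.60 and 0.73), the elastic fibre protein Fbln5 (0.56 and 0.95), the chromatin remodeller Chd3 (0.49 and 0.86) and Ndrg2 (0.94 and 0.41) rose in both. Among genes lower in both were Fmo5 (-0.997 and -0.62), the water channel Aqp1 (-0.67 and -0.56), Morc4 (-0.64 and -0.64) and Sncg (-0.52 and -0.82). Hist1h2bk (-1.12 and -1.81) lost its overexpression call without overexpression replicate 2 (adjusted p = 0.347), control replicate 1 (0.0992) or control replicate 2 (0.0687). Start regions in the RefSeq table were searched for the largest risers and fallers and these sign-class genes, without Cidea. The forkhead core stood in 1 of them, which is 1 of the 3 start regions of Ndrg2. It is shown here with TGTTTAC in capitals, 5′ to 3′ along the gene (GRCm38.p6, chr14:51913955-51914254, minus strand).
Ndrg2: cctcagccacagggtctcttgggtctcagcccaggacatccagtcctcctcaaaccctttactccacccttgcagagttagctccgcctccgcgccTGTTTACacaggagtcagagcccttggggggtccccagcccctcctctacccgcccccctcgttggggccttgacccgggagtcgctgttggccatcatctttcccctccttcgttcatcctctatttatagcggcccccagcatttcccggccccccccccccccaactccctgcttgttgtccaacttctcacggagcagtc
The other start regions of Ndrg2 in the table hold neither TGTTTAC nor GTAAACA. Ndrg2 was at 1.22 and 1.34 RPKM in the controls and 2.92 and 2.92 RPKM with overexpression and at 2.01 and 2.08 RPKM in the scrambled shRNA controls and 2.94 and 2.81 RPKM in knockdown. A match is a run of letters and does not show that Foxk2 binds there.

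**Figure D5:**
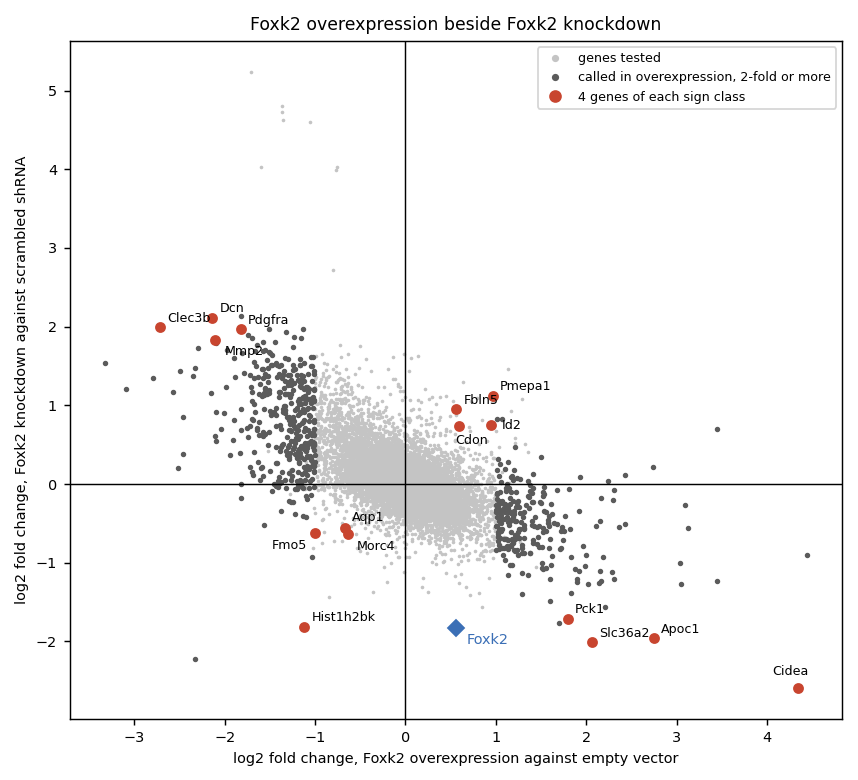
Log2 fold change of each tested gene with Foxk2 overexpression (horizontal axis) and with Foxk2 knockdown (vertical axis), light grey for all genes, dark grey for those called in overexpression at 2-fold or more, red for 4 named genes of each sign class and blue for Foxk2. The cloud slopes downward (Pearson r = -0.607), with Cidea (4.34 and -2.59) at the lower right and Clec3b (-2.71 and 1.99) at the upper left; the light points at the top are mitochondrially encoded messages such as mt-Co2 (-1.35 and 4.62) and their copies.

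Among the lists below, medians of the 2 effects mostly had opposite signs, uneven in size. They had the same sign for adipocyte markers, mTOR and autophagy genes, and ribosomal proteins. Fibroblast markers had medians of -0.92 and 1.20, with 0 higher and 19 lower in overexpression and 20 higher and 0 lower in knockdown. Matrix genes had medians of -0.94 and 0.77, with 2 higher and 34 lower in overexpression and 40 higher and 1 lower in knockdown. Thermogenic genes had medians of 1.92 and -1.10, with 7 higher and 0 lower in overexpression and 0 higher and 5 lower in knockdown. Glycolysis enzymes had medians of 0.90 and -0.23, with 14 higher and 2 lower in overexpression and 3 higher and 9 lower in knockdown, so the median shift was larger with overexpression. Hk2 had log2 fold changes of 1.25 ± 0.065 (SE) and -0.69 ± 0.065, and Pdk1 of 1.31 ± 0.076 and -0.88 ± 0.076. The difference between the effects passed for 17 of 17 glycolysis enzymes, beside 58.6% of all genes tested. Adipocyte markers had medians of -0.53 and -0.13, with 5 higher and 10 lower in overexpression and 3 higher and 6 lower in knockdown. Adipoq fell with overexpression (-1.29) and fell with knockdown too (-0.22 ± 0.053 SE, adjusted p = 0.004). Cholesterol genes had medians of 0.42 and -0.40, with 18 higher and 1 lower in overexpression and 0 higher and 20 lower in knockdown. Subunits of complexes III to V had medians of 0.56 and -0.25, with 34 higher and 0 lower in overexpression and 0 higher and 29 lower in knockdown. Genes of mTOR and autophagy had medians of -0.046 and -0.04, with 10 higher and 14 lower in overexpression and 7 higher and 8 lower in knockdown. Ribosomal proteins had medians of 0.24 and 0.16, with 35 higher and 3 lower in overexpression and 27 higher and 1 lower in knockdown.

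The overexpression labelled Foxk1 was set beside that of Foxk2 with the limit that Foxk1 did not rise there but fell (log2 fold change -0.28 ± 0.055 SE), against the label. That comparison also had its own controls and shallower libraries. It called 3507 genes (27.2%) higher and 3294 (25.6%) lower, 52.8% in either direction. Fold changes of the 2 comparisons were positively related across genes (Pearson r = 0.687 over 12870 genes, a description). Both called 4340 genes in the same direction (61.0% of the calls with Foxk2 and 63.8% of the others) and 390 in opposite directions. A contrast of the 2 effects passed for 3916 genes (30.4%). Cidea rose in both, by 4.34 with Foxk2 and 3.02 in the labelled libraries, and the difference passed (adjusted p = 6.1e-05). Cyp2b10 rose by 4.45 and 1.93, with a difference of 2.52 ± 0.12 (SE, adjusted p = 2.98e-09). Synm rose with Foxk2 alone of the 2 comparisons, with 2.25 and 0.079 (adjusted p of the difference 1.12e-09). Clec3b fell by 2.71 and 4.000, and Ccdc80 had -3.33 and -1.99. Glycolysis enzymes had medians of 0.90 and 1.01, and the difference passed for 6 of 17. Subunits of complexes III to V had 0.56 and 0.22, and the difference passed for 26 of 35.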

How the data were processed

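Library strand is not given in the sources used here. The deposited table holds RPKM values, which the authors made per gene of the GENCODE annotation of mm10. Per the submitters' processing notes, HISAT2 2.1.0, Picard 1.141, featureCounts (Subread 1.5.1) and edgeR were among the tools, with no order or setting given. Whole reads behind the RPKM values gave the assigned reads per library.

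Genes with 0.5 RPKM or more in at least 2 of the 4 libraries were tested with limma 3.58.1 in R 4.3.3 on log2(RPKM + 0.5). The model had 8 group means over all 20 libraries (12 residual degrees of freedom), eBayes with a mean trend, and Benjamini-Hochberg adjustment over 12870 genes. Calls are at an adjusted p under 0.05, two-sided. The model was also run on simulated data in which far fewer genes changed than were called here. Its error rate in the present data was not tested.

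The members, the 50 gene lists and the tests were chosen with earlier results of these data known, and no p is given for a list. The text names Foxk2 and Foxk1; the 12 rises and 12 falls of largest log2 fold change among those called, provided the higher group averaged at least 2 RPKM, with groups apart and no predicted name; up to 4 called members of smallest p in each direction of a list; every measured glycolysis enzyme, carrier, pyruvate dehydrogenase gene and Foxk partner; all members on a side of a list with 5 or fewer calls; defining markers of other cell types; and the 8 genes of largest smaller absolute fold change in each sign class beside knockdown. Near-identical copies were found with BLAST+ 2.17.0 (99% identity over at least 100 bases). Of 48440 gene IDs, 48058 matched the annotation without the version. Alternatives were other pseudocounts, filters, scalings, models, and each library left out. Some genes that the rule would name are not reported here.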

Additional observations from a re-analysis of the deposited data

How the results depend on the processing

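The number of genes higher ranged from 2758 to 4011 and the number lower from 2828 to 3683 over all alternatives, and the direction of the Foxk2 rise held in each. Leaving out 1 library gave 2758 to 3473 higher and 2828 to 3041 lower, with the lone library of a group assumed to vary like the other groups. Same-numbered libraries share only a number (correlation of their deviations 0.0175), and the replicate block gave 3572 higher and 3340 lower. Of 357 called genes followed through the alternatives, 316 kept sign and call in all of them and 41 lost the call or the sign in at least 1: 21 without overexpression replicate 2, 18 without control replicate 1, 17 without control replicate 2, 12 without overexpression replicate 1, 17 in a model of the 4 libraries alone and 14 with the length and GC trend removed. Pcx reversed with that trend removed, from -0.17 to 0.059, and the cause was not tested. List medians were less steady than single genes. With the length and GC trend removed, 28 list medians moved by more than their SD between replicate libraries and 20 did not. Under quantile normalization, 30 moved and 18 did not. The model of the 4 libraries cannot give the difference from knockdown or from the overexpression labelled Foxk1, nor the model of the 8 Foxk2 libraries the latter. Lists without near-identical copies were an alternative chosen after seeing the data. Genes changed 2-fold or more numbered 175 to 416 higher and 268 to 654 lower over the alternatives. Of the 3218 genes with the lowest mean RPKM, 17.4% were higher and 21.5% lower, against 41.0% and 27.4% of the 3218 with the highest, and the part of depth in this was not tested.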

Other observations

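Calls were unevenly spread over gene classes outside the lists. Of the 3216 genes with the lowest GC content, 43.1% were higher and 11.9% lower (median log2 fold change 0.16), and of the 3208 with the highest, 15.4% were higher and 43.0% lower (median -0.155). Of 1054 pseudogenes tested, 21.7% were higher and 5.98% lower. Chromosome 16 had 44.9% of its tested genes higher, and chromosome 11 had 35.8% lower. The part of GC content in these shares was not tested gene by gene.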
